A study of Caenorhabditis elegans with 4 samples.

Results

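The regions described here are the LIN-61 peaks of the autosome centres in L3 larvae of Caenorhabditis elegans: 1657 of the 13662 peaks in the combined list that the authors deposited for the series. A peak belonged to the set when the midpoint of its first and last base lay on chromosome II between 5093116 and 10186230, on III between 4594568 and 9189133, on IV between 7000001 and 13499999, or on V between 6974717 and 13949433 (genome build WS220, counted from 1). These intervals span 23.2 Mb, or 34.3% of the 4 chromosomes. They are the middle parts of II, III and V after division into equal lengths. On IV the interval is shifted to the right and covers 37.2% of the chromosome, so that most of the piRNA gene clusters of IV fall in its flanks. Chromosomes I and X are not part of the set. By the same rule the list of ChIP replicate 1 held 1322 centre peaks of 11744, and that of ChIP replicate 2 held 970 of 9436.

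The study used 2 ChIP libraries, made with an affinity-purified rabbit polyclonal antibody raised against LIN-61, and 2 input DNA libraries. All came from wild-type worms of the laboratory strain N2, grown at 20 degrees Celsius to the L3 stage as a population of males and hermaphrodites. Whole larvae were used, so germ line and somatic tissues are mixed. A peak is a stretch that the authors' caller, MACS, marked as a binding site; each has a first base, a last base and a score. The score is the caller's own, its quantity is not named in the sources used here, and it served to rank peaks within a list. Only ChIP peak lists were analysed, and they hold no read counts, so depth is unknown. Nothing in the labels says that the replicates were separate cultures, and the spread between them may be technical.

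LIN-61 is a chromatin protein built of MBT repeats, folds that read methylated lysines on histone tails. Its known ligand is lysine 9 methylation of histone H3, which marks silent chromatin. The gene lin-61 is one of the synMuv B genes, which keep vulval and germ line genes repressed in cells that should not use them. In C. elegans this mark is concentrated on the repeat-rich autosome arms, while the autosome centres hold many operons and broadly expressed genes and recombine less in meiosis.

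Centre peaks were sparse. All 4 centres together held 57.1 (replicate 1) and 41.9 (replicate 2) peaks per Mb, averaging 49.5 ± 10.8 (SD, n = 2). The arms of the same chromosomes held 160.4 and 133.4 peaks per Mb, averaging 146.9 ± 19.1 (SD, n = 2). The ratio of centre to arm density was 0.36 in replicate 1, 0.31 in replicate 2 and 0.39 in the combined list. The ranges of the replicates did not overlap between centres and arms. Replicate 2 had 0.73 times the peak density of replicate 1 in the centres and 0.83 times in the arms.

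The 4 centres were not alike. Chromosome III had the densest centre, with 74.4 peaks per Mb in replicate 1, 56.6 in replicate 2 and 93.6 in the combined list (430 peaks). Its arms held 241, 211 and 270.3 peaks per Mb in the same lists. Chromosome IV followed, with 63.1, 44.6 and 79.4 peaks per Mb in the centre (516 combined peaks) and 159, 127 and 173 in the arms. Its 2 arms were unlike, with 205.6 combined peaks per Mb in the left and 114.9 in the right. The centre of II held 51.8, 32.4 and 62.0 peaks per Mb (316 combined peaks), against 148, 123 and 169 in its arms. Chromosome V had 43.9, 36.6 and 56.6 peaks per Mb in the centre (395 combined peaks) and 117, 95 and 139 in the arms. The order III, IV, II, V held in replicate 1 and in the combined list, and II and V changed places in replicate 2. The centre was below the arms on 4 of 4 chromosomes in each list, and below each of the 8 arms taken singly. With the chromosome as the unit, the combined difference was -114.8 peaks per Mb ± 42.4 (SD over 4 chromosomes), and 2 of the 16 possible sign flips were as large (exact two-sided permutation test, p = 0.13, unchanged by adjustment over the 6 comparisons of the list). That is the smallest value 4 pairs allow, so no comparison of centres with arms can pass a threshold of 0.05.

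**Figure D1:**
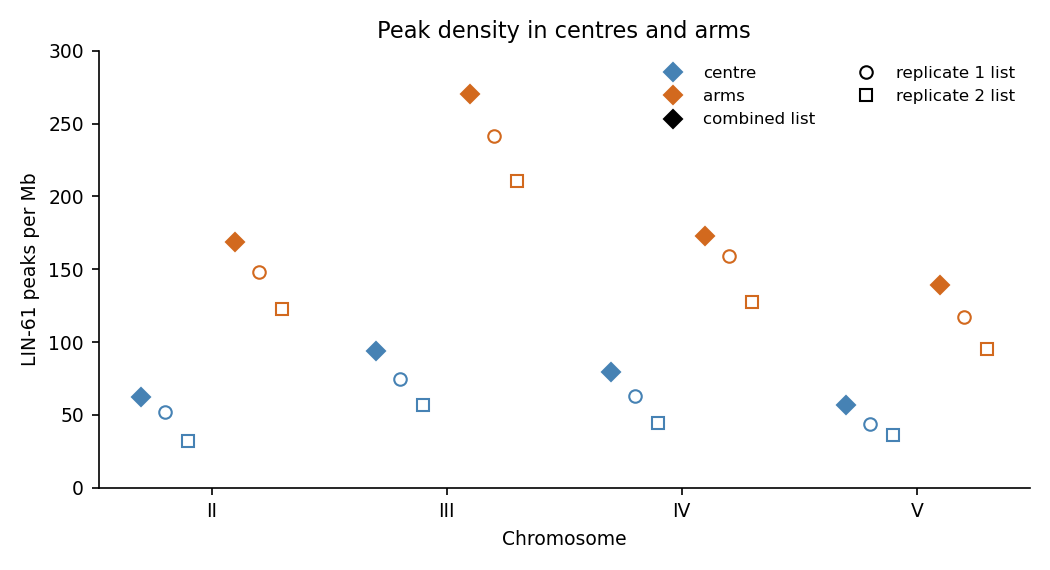
LIN-61 peaks per Mb (vertical axis) in the centre (blue, left) and the arms (orange, right) of chromosomes II to V; diamonds are the combined list, open circles replicate 1 and open squares replicate 2. On each chromosome the centre points lie below all arm points, with III highest in both parts.

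The shortfall of the centres was larger among strong peaks than among weak ones. Each list was cut into 4 equal score classes over the whole genome, from class 1 (weakest) to class 4 (strongest). In class 1 of the combined list the centres held 505 peaks, or 21.8 per Mb, against 38.2 per Mb in the arms, a ratio of 0.57. The ratio was 0.47 in class 2 and 0.38 in class 3. In class 4 the centres held 276 peaks, or 11.9 per Mb, against 53.4 per Mb in the arms, a ratio of 0.22. The replicates gave the same order: 0.50, 0.43, 0.36 and 0.19 from weakest to strongest in replicate 1, and 0.43, 0.36, 0.28 and 0.23 in replicate 2. Class 4 had a lower ratio than class 1 on 4 of 4 chromosomes in each of the 3 lists. Not every step ran downward: on V in replicate 2 the ratio of class 4 (0.32) was above that of class 3 (0.29), and on IV in replicate 1 that of class 2 (0.52) was above that of class 1 (0.45). This gradient was not tested.

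**Figure D2:**
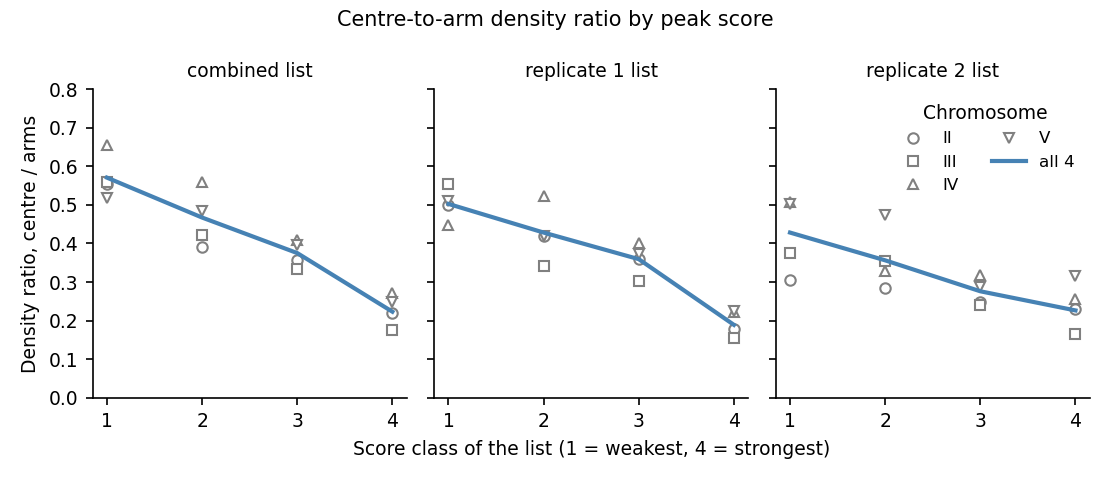
Ratio of centre to arm peak density (vertical axis) for the 4 score classes of each list, from weakest (1) to strongest (4), with 1 panel per list. Grey symbols are the 4 chromosomes and the blue line is all 4 together; the line runs down from 0.57 to 0.22 in the combined list and from 0.43 to 0.23 in replicate 2.

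Centre peaks were also narrower and scored lower. In the combined list the median centre peak was 288 bp wide (quartiles 199 and 487 bp), against 353 bp in the arms (217 and 702 bp). The lower quartiles were closer together than the upper ones. The median score of centre peaks was 6.71 (quartiles 4.10 and 13.4), and that of arm peaks 9.41 (4.99 and 22.0). By chromosome, the median centre score was 6.43 on II, 6.71 on III, 6.81 on IV and 6.94 on V, a much narrower range than that of the densities. The arms had 9.0, 9.99, 9.41 and 8.62. The replicates did not keep this order of the centres. From II to V the centre medians were 5.98, 6.185, 6.5 and 6.395 in replicate 1. In replicate 2 they were 7.35, 6.675, 6.69 and 6.77, with II highest. Replicate 1 gave medians of 282 bp and 6.31 in the centres, against 341 bp and 8.87 in the arms. In replicate 2 they were 276 bp and 6.71 in the centres and 316 bp and 8.18 in the arms. Both medians were lower in the centre on 4 of 4 chromosomes in each list (exact permutation test over 4 chromosomes, p = 0.13 for each). With the left and right arms taken apart, the right arm of II in replicate 2 had a lower median score than the centre (7.35 in the centre, 7.0 in that arm).

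Little of the centre sequence lay under a peak. Combined peaks covered 3.61% of the centres and 11.7% of the arms. The covered share was 2.87% on II, 4.74% on III, 4.04% on IV and 3.0% on V. In the replicates it was 2.72% and 1.86% for all centres, a mean of 2.29% ± 0.61 (SD, n = 2), against 9.73% and 6.78% for the arms, a mean of 8.26% ± 2.08. These lists were called separately, so a covered length also moves with how much was called. The top 1% of the combined list numbered 136 peaks. Of these, 6 lay in the 4 centres (0.36% of their own peaks) and 113 in their arms (1.4% of theirs). These shares were 0.61% and 1.27% in replicate 1, and 0.72% and 1.285% in replicate 2. Among the top 10%, the centres held 94 peaks, or 5.67% of their own peaks, and the arms 1018, or 12.7% of theirs. The arms differed among themselves in this, and 6 of the 8 had a larger share in the top 10% than the centre of their chromosome. The exceptions were the left arm of V (6.08% in the V centre, 4.85% in that arm) and the right arm of III (6.51% in the III centre, 6.26% in that arm). Both were exceptions in replicate 1 and replicate 2 as well. In replicate 2 the right arm of II was another (11.5% in the II centre, 9.91% in that arm). For the top 1% of the combined list the share was 0.47% in the III centre and 0.18% in the right arm of III, and 0.95% in the II centre and 0.78% in the right arm of II. In the replicates the top 1% share of the II centre was above that of its arms together. It was 1.89% against 1.46% in replicate 1 and 3.03% against 1.52% in replicate 2, with 5 centre peaks in each. The IV centre was also above its arms in replicate 1 (0.73% and 0.63%, 3 centre peaks). The other centres were below their arms in the replicates. A low share of strong peaks was therefore not particular to the centres, nor was it found in every centre in the replicate lists.

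A smaller share of centre peaks than of arm peaks was found again in the replicate lists. A combined peak counted as supported by a replicate when the lists overlapped by at least 1 bp. In the centres 609 of 1657 peaks had both replicates (36.8%, 95% Wilson interval 34.5 to 39.1), against 45.3% of all combined peaks and 48.7% of those in the arms (47.6 to 49.8). Another 460 centre peaks had replicate 1 only (27.8%), 177 had replicate 2 only (10.7%), and 411 had neither (24.8%, 22.8 to 26.9). In the arms the shares were 26.0%, 6.93% and 18.4% (17.6 to 19.3). The share with both was 34.8% on II, 37.4% on III, 36.6% on IV and 37.7% on V, and below that of the arms on each (48.2%, 51.0%, 48.9% and 46%). The exact permutation test over the 4 chromosomes gave p = 0.13. The intervals cover counting error only and take peaks as independent, which neighbours need not be. Arm peaks were also wider and covered more of their sequence, and wider peaks meet an overlap of 1 bp more easily. How much of the difference that accounts for was not tested.

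**Figure D3:**
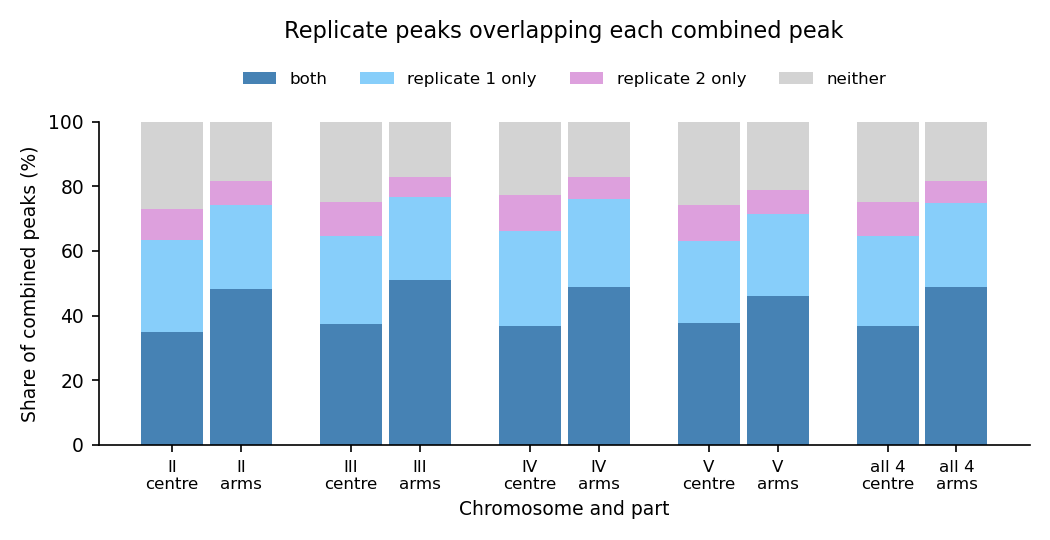
Share of combined peaks (vertical axis, %) that overlap a peak of both replicates, of replicate 1 only, of replicate 2 only or of neither, for the centre (left bar) and the arms (right bar) of each chromosome and of all 4. The share with both is between 34.8% and 37.7% in the centres and between 46% and 51.0% in the arms.

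Seen from the replicates, 679 of 1322 centre peaks of replicate 1 (51.4%, 95% Wilson interval 48.7 to 54.0) overlapped a replicate 2 peak, against 59.1% over the genome and 61.9% in the arms. In replicate 2, 736 of 970 centre peaks (75.9%, 73.1 to 78.5) overlapped a replicate 1 peak, against 85.0% over the genome and 87.5% in the arms. By chromosome, the replicate 1 share was lowest on II (46.6%) and highest on V (56.2%), while in replicate 2 it lay between 74.9% and 77.0%. With an overlap of 50% of both peaks required, the replicate 2 shares averaged 49.6% in the centres and 51.7% in the arms over the chromosomes. The centre was then lower on 2 of 4. Those of replicate 1 averaged 36.1% and 42.8%, with the centre lower on 4 of 4. Partnered centre peaks of replicate 1 scored 10.3 and measured 360.0 bp at the median, while the unpartnered ones scored 4.79 and measured 220.0 bp. In replicate 2 partnered peaks scored 8.01 and measured 314 bp, and unpartnered ones scored 4.63 and measured 197 bp.

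Once peaks were compared within a class of the combined score, the intervals on replicate support overlapped between centres and arms. The combined score and the support come from the same libraries. In class 4, 97.8% of centre peaks (95% Wilson interval 95.3 to 99.0) and 98.9% of arm peaks (98.4 to 99.2) had both replicates. In class 3 the shares were 66.0% (61.2 to 70.5) in the centres and 65.8% (63.7 to 67.9) in the arms. In class 1, 9 of 505 centre peaks (1.78%, 0.94 to 3.35) and 20 of 1694 arm peaks (1.18%, 0.77 to 1.82) had both. This overlap of intervals held in all 4 classes. The replicate lists did not show this throughout. In replicate 2 the share of peaks with a partner was 57.9% in the centres and 70.5% in the arms for class 1, and 97.0% and 99.5% for class 4. In replicate 1 these shares were 25.8% and 26.8% for class 1 and 94.3% and 97.0% for class 4. Since the combined score and the support share libraries, the overlap of intervals cannot show how far score accounts for the gap in support. The part of score in that gap was not tested in any list.

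Among sites found in both replicates, the scores were related. Over 642 pairs of overlapping replicate peaks in the centres, each peak used once, Spearman's rho was 0.67 and Pearson's r 0.74. The arms gave 0.74 and 0.82 over 4200 pairs. By chromosome rho was 0.66 on II, 0.74 on III, 0.66 on IV and 0.61 on V. The widths of the paired peaks were related as well, with rho of 0.67. The pairs share their libraries and the caller and are not independent samples, so these values describe the ranking of sites only.

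The strongest centre sites were found by taking, on each chromosome, the 3 combined peaks with both replicates and the highest score. Chromosome II carried the highest of all. A peak of 686 bp at chromosome II, 10174341 to 10175026, had a score of 135.07, rank 24 of the whole combined list. It ranked 4 in replicate 1 (score 212.8, 638 bp) and 2 in replicate 2 (148.14, 655 bp). This site lies 11.5 kb inside the right limit of the interval. The 4256-bp peak at chromosome II, 5346426 to 5350681 (score 120.54, rank 57) was the widest of that centre with both replicates. It corresponded to 2 peaks in replicate 1, the best with a score of 185.39, and to 6 in replicate 2, the best with 89.41. The other site on II, 10033513 to 10035035 (1523 bp, score 111.1), had 179.0 in replicate 1 and 110.7 in replicate 2, ranks 17 and 14. All 3 sites on II lay within 0.26 Mb of a limit of the interval, at the edge of the centre.

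On the other chromosomes most leading sites lay deeper. On III, the peak at 8441127 to 8442878 (1752 bp) had a combined score of 117.08, with 95.17 in replicate 1 and 74.05 in replicate 2. The peak at chromosome III, 7498298 to 7499015 (718 bp, score 107.86) had 96.82 and 85.25 in the replicates and lay 1.69 Mb from the nearest limit. The other on III, 9052152 to 9054764 (2613 bp, score 99.00), scored 70.82 in replicate 1 and 100.49 in replicate 2, and lay 0.14 Mb from the right limit. On V, the leading site was at 10341108 to 10342644 (1537 bp, score 100.66), 3.37 Mb from the nearest limit, with 110.06 in replicate 1 and 72.51 in replicate 2. It had 1 other combined peak within 50 kb. The next on V were at 10267830 to 10269802 (score 80.68) and at 9087617 to 9088595 (score 78.29), both over 2.1 Mb from a limit. No centre peak of V was in the top 1% of the combined list.

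Chromosome IV held the site where the replicates differed most among the leading ones. The 3828-bp peak at chromosome IV, 12022095 to 12025922 had a combined score of 115.78, rank 77. It was a single peak in both replicates, of 3561 bp with a score of 141.45 (rank 69) in replicate 1 and of 3546 bp with a score of 21.33 (rank 1460) in replicate 2. The extent of the peak was thus nearly the same while its rank was not. The next sites on IV were at 8072392 to 8074202 (1811 bp, score 92.19, ranks 508 and 503 in the replicates) and at 8466871 to 8468284 (1414 bp, score 87.81, ranks 62 and 418). Over the 12 sites, the best overlapping peaks had ranks from 4 to 687 in the replicate 1 list and from 2 to 1460 in that of replicate 2.

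**Figure D4:**
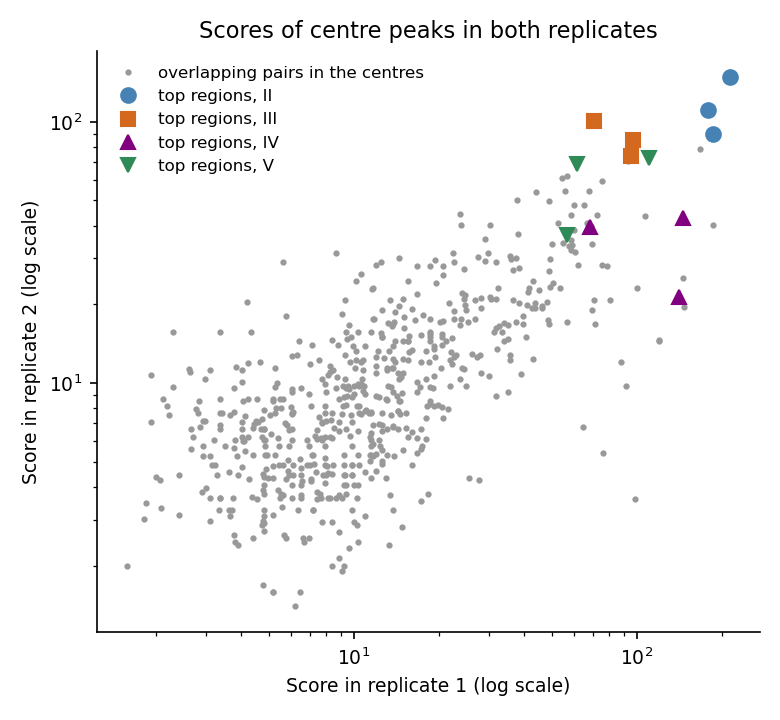
Score in replicate 1 (horizontal axis, log scale) and replicate 2 (vertical axis, log scale) of overlapping peak pairs in the centres (grey) and of the best replicate peaks over the 3 leading sites of each chromosome (coloured symbols). The 3 sites of II lie at the upper right; the triangle of IV at 141.45 in replicate 1 has only 21.33 in replicate 2.

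Wide peaks were few in the centres. Peaks of 2 kb or more numbered 60 of 1657 (3.62%, 95% Wilson interval 2.82 to 4.63), against 408 of 8043 in the arms (5.07%, 4.61 to 5.57), or 2.59 and 9.21 per Mb. In the replicate 1 list 38 centre peaks were this wide (2.87%, against 4.40% in the arms), and in replicate 2 there were 24 (2.47%, against 2.33%), so the lower share of wide peaks was not seen in replicate 2. Nor was it seen on V in the combined list, where 4.30% of centre peaks and 3.40% of arm peaks were this wide. The 60 wide peaks made up 23.2% of the length covered by all centre peaks. Of the 60, 59 had both replicates, against 36.8% of all centre peaks. The wide peaks had a median score of 28.7, which lies in score class 4. In that class 97.8% of all centre peaks and 98.9% of arm peaks had both replicates. Wide centre peaks numbered 9 on II, 13 on III, 21 on IV and 17 on V. Chromosome III had the widest, 11035 bp from 7720437 to 7731471 (score 60.55). It corresponded to 2 peaks in replicate 1, the longer of 7613 bp, and to 4 in replicate 2. On V a peak of 8183 bp at 7916817 to 7924999 had a combined score of 12.21 (rank 5115). In replicate 1 the matching peak was 9248 bp wide with a score of 98.88 (rank 229), while replicate 2 had 8 separate peaks, the best with 7.73 (rank 4686). On IV the widest was a 4384-bp peak at 10504184 to 10508567 (score 51.29), 2.99 Mb from the nearest limit. In the replicate 2 list all 4 of these widest sites were broken into 4 to 8 pieces.

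Centre peaks stood alone more often than arm peaks. A peak was called isolated when no other peak of its list lay within 10 kb, edge to edge. In the combined list 204 centre peaks were isolated (12.3%, 95% Wilson interval 10.8 to 14.0), against 284 in the arms (3.53%, 3.15 to 3.96). The centre share was 15.2% on II, 8.84% on III, 10.3% on IV and 16.5% on V, in reverse order of their densities in that list. The replicates did not keep this order: in replicate 1 the share was higher on II (18.9%) than on the sparser V (18.6%), and in replicate 2 it was highest on IV (24.5%) and 21.8% on II, the sparsest. The right arm of IV came close to the IV centre in the combined list, with 10.3% isolated in the centre (7.94 to 13.2) and 9.80% in that arm (7.41 to 12.9). In replicate 1 it was 16.6% for all centres against 4.22% for the arms, and in replicate 2 22.1% against 5.39%. The share was above that of the arms on 4 of 4 chromosomes in each list (exact permutation test over 4 chromosomes, p = 0.13). A lower density leaves more peaks alone by itself, and how much of the difference that accounts for was not tested.

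Isolated centre peaks had higher scores than those with neighbours, which was not so over the arms together. In the combined list the median score was 9.83 for isolated centre peaks and 6.44 for those with a neighbour. Isolated arm peaks had a median of 8.77 and the other arm peaks 9.41, although on IV isolated arm peaks had the higher median (10.3, against 9.41). Of the isolated centre peaks 98 of 204 had both replicates (48.0%, 95% Wilson interval 41.3 to 54.9), against 511 of 1453 of the others (35.2%, 32.8 to 37.7), although they were narrower, at a median of 263 bp against 295 bp. The score difference in the centres had the same sign on all 4 chromosomes in the combined list and in replicate 1 (9.15 isolated, 6.06 with neighbours). In replicate 2 the medians were 7.68 and 6.69 over all centres, and IV had 6.54 for isolated peaks and 6.70 for the others. The share with a partner in replicate 2 was 74.8% for isolated peaks and 76.2% for the others. The higher support of isolated peaks was therefore seen in the combined and replicate 1 lists only among the lists compared here, and none of these differences was tested.

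The nearest neighbour of a centre peak was farther away at the median. In the combined list the median gap to the nearest peak was 554 bp in the centres and 385 bp in the arms. It was 538.5 bp and 357 bp in replicate 1, and 948 bp and 446.5 bp in replicate 2. The right arm of IV was an exception in the combined list, with 610.5 bp in the IV centre and 685 bp in that arm. It was also an exception in replicate 1 (561 bp in the centre, 613.5 bp in that arm), but not in replicate 2 (1451 bp and 863 bp). Peaks were then joined into groups over gaps of up to 5 kb, and a group was placed by its own midpoint. The combined peaks of the centres formed 691 groups, of which 324 held a single peak and 87 held 5 peaks or more. Groups of 5 or more took in 36.8% of centre peaks and 74.8% of arm peaks in the combined list. In replicate 1 these shares were 36.0% and 73.9%, and in replicate 2 they were 22.2% and 66.9%. The largest combined group of the centres held 20 peaks in 33538 bp at chromosome III, 5621233 to 5654770, where peaks covered 8014 bp. The largest of the arms, also on III, held 98. The largest centre group lay elsewhere in the replicates, with 18 peaks on IV in replicate 1, at 13477677 to 13510000 across the right limit, and 14 on V in replicate 2, at 10715295 to 10726383.

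Density varied along each centre, and the centres did not simply thin out toward their middle. Each interval was divided into 5 equal parts from left to right. On III the combined list gave 74.0, 133.9, 107.7, 71.8 and 80.5 peaks per Mb, with the second part highest in replicate 1 (120.8) and replicate 2 (80.5) too. On V the values were 44.4, 76.0, 73.8, 40.9 and 48.0, and the second part and the middle one were the highest in all 3 lists. The centre of II had 61.8, 58.9, 82.5, 45.2 and 61.8 combined peaks per Mb. There the middle part was the highest in the combined list and replicate 1, and the rightmost in replicate 2.

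Chromosome IV differed, with 55.4, 60.0, 62.3, 96.2 and 123.1 peaks per Mb from left to right. The last part was also the highest in replicate 1 (109.2) and in replicate 2 (68.5). Its final 250 kb, next to the right limit, held 58 combined peaks, or 232 per Mb, the highest of any 250-kb bin of the centres; it was also the highest of replicate 1 (204) and of replicate 2 (156). When IV was instead divided into equal lengths like the other chromosomes, its middle part held 62.9 combined, 51.3 replicate 1 and 36.2 replicate 2 peaks per Mb. The rank of IV above II in density thus became a near tie in the combined list (62.9 and 62.0). In replicate 1 IV was then just below II (51.3 and 51.8), and in replicate 2 just below V (36.2 and 36.6).

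**Figure D5:**
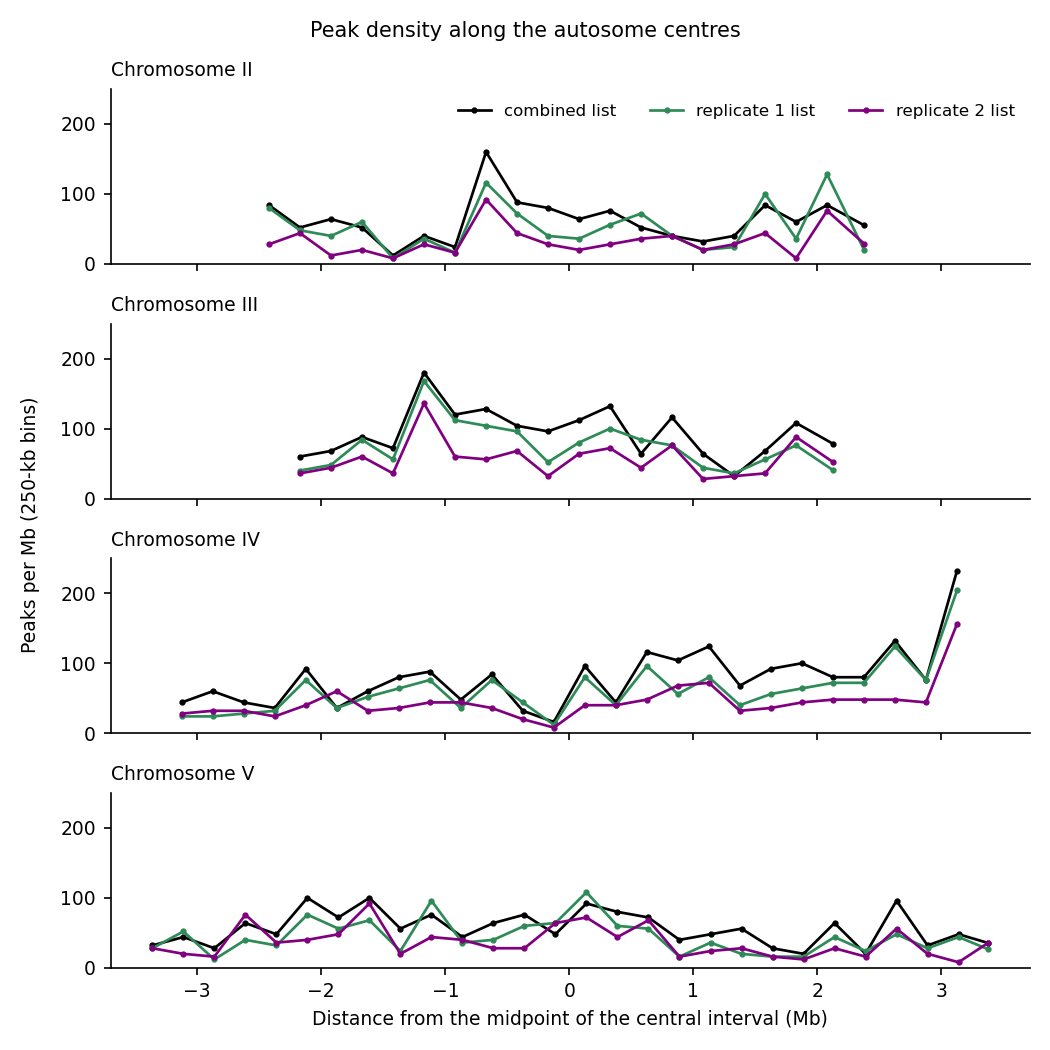
Peak density (vertical axis, peaks per Mb in 250-kb bins) along the centres of II, III, IV and V, against the distance from the midpoint of each interval (Mb); lines are the combined list (black), replicate 1 (green) and replicate 2 (purple). The right end of IV reaches 232 in the combined list, and III peaks at 180.0 left of its midpoint.

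At finer scale, 9 of 232 windows of 100 kb held no combined peak, 2 on IV and 7 on V, and the median window held 6. In replicate 1, 17 windows were empty and in replicate 2, 25. The fullest window of the combined list was on IV, 13400001 to 13499999, with 25 combined peaks that covered 13.7% of it, 20 peaks in replicate 1 and 15 in replicate 2. Another window on IV held as many combined peaks but was less covered. On II the fullest, 6893116 to 6993115, held 24, 18 and 13 peaks in the combined, replicate 1 and replicate 2 lists, and on III the window at 5594568 to 5694567 held 23, 20 and 16. On V the window at 8374717 to 8474716 held 17, 13 and 4 peaks. Of its 17 combined peaks 3 had both replicates (17.65%). In the windows of II, III and IV these were 9, 12 and 11 (37.5%, 52.2% and 44.0%). Over all centre peaks the share was 36.8%. In both replicates the fullest window of V was another, 10674717 to 10774716, with 21 peaks in replicate 1, 16 in replicate 2 and 15 in the combined list, of which 8 had both. On III replicate 2 had the same fullest window as the combined list. The fullest of IV was 12800001 to 12900000 in replicate 1 (27 peaks) and 13300001 to 13400000 in replicate 2 (17 peaks), and on II the replicates also had other windows, with 18 peaks in replicate 1 and 16 in replicate 2.

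Long stretches without a combined peak also occurred in the centres. The longest on V was 248.9 kb, from 7444808 to 7693735, and on II it was 176.9 kb, from 6009122 to 6186053. Neither stretch held the midpoint of a peak in either replicate. On IV the longest was 142.9 kb, from 8257891 to 8400748, with 1 weak peak in replicate 2 (score 2.90). The longest on III was 99.8 kb, from 8127750 to 8227544, which was free of peaks in both replicates as well. The dense centre of III thus had the shortest of these gaps.

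Some high-scoring centre peaks were seen in 1 replicate only; they were picked out after their values were seen. In replicate 2 a 215-bp peak at chromosome III, 6798125 to 6798339 had a score of 32.66 (rank 745) and no partner in replicate 1. The combined list held it with a score of 28.0. In replicate 1 a 199-bp peak at chromosome V, 9582999 to 9583197 had a score of 34.96 (rank 1307) and no partner in replicate 2. The highest-scoring combined centre peak without both replicates was at chromosome III, 5555002 to 5555203 (202 bp, score 28.42), with replicate 1 only. These 3 peaks were all near 200 bp wide, narrower than the median centre peak. Replicate 1 held 133 centre peaks of 1322, of median score 3.65, that overlapped neither replicate 2 nor the combined list. Replicate 2 held 35 of 970, of median score 4.05, that overlapped neither replicate 1 nor the combined list. In replicate 1, 89.9% of centre peaks and 93.6% of arm peaks overlapped a combined peak. For replicate 2 these shares were 96.4% and 98.9%.

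The intervals were set by position, and 2 of their 8 limits fell in long stretches without a combined peak. The stretch across the left limit of II was 116.9 kb long and that across the left limit of IV 116.5 kb, both longer than the longest gap within the III centre. Across the other 6 limits the stretches measured between 3.89 kb (IV, right) and 67.0 kb (III, right). The nearest members lay between 4.76 kb (IV, right) and 85.9 kb (II, left) inside a limit, and the nearest peaks outside between 0.167 kb (IV, right) and 85.5 kb (IV, left). At the right limit of IV the peak just inside spanned 1049 bp and scored 9.72, and the one just outside, at 13499653 to 13500679, spanned 1027 bp and scored 27.12. At the right limit of II the peak just inside was the one with the score of 135.07, and the one just outside had 15.55. At the left limit of V they had 41.2 inside and 1.70 outside.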

How the data were processed

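ChIP-seq peak lists of LIN-61 in N2 L3 larvae were analysed: 1 list per ChIP library and 1 for the series, made in a way that is not stated. Per the file headers, the authors' lists are on build WormBase WS220 and hold binding sites called by MACS. How MACS was set is not given in the sources used here, nor are its version, its control, the aligner and any filtering. The deposited score of a peak has no named quantity and was compared within a list. The other deposited values, the first and last base of each peak, gave its width.

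Samples were grouped by title. Arms are everything on II to V outside the intervals, up to the last base of any peak. The 2 mitochondrial peaks of replicate 1 were counted in the total, ranks and score cuts of its list. They belong to no centre or arm and were left out of its partner share over the genome. Differences between centres and arms were tested by exact sign flips over 4 chromosomes, with Benjamini-Hochberg adjustment over the 6 tests of a list; shares carry Wilson intervals. The regions named are, per chromosome, the 3 highest-scoring and the widest combined peaks with both replicates, the fullest 100-kb window, the longest stretch with no peak, and the peaks nearest the limits. Alternatives were other overlap rules, score and limits, merging of peaks, and each replicate list alone. The members, comparisons and lists were chosen with earlier results of these data known; the score classes, the isolated peaks by score, the groups of peaks, the arms taken singly and the fullest windows of the replicates were added after seeing the data. Functions were tested on simulated data. No genes or sequences are given, since no genome or annotation of WS220 was used here. Analyses used Python 3.11.15, numpy 2.4.6, pandas 2.3.3, scipy 1.17.1 and matplotlib 3.10.9.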

Additional observations from a re-analysis of the deposited data

How the results depend on the processing

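The differences between centres and arms in density, width, score, isolated share, covered share and replicate support kept their direction under every alternative run, with p = 0.13 in the exact permutation test over 4 chromosomes, except that with an overlap of 50% of both peaks replicate 2 peaks with a partner were rarer in the centres on 2 of 4 chromosomes (49.6% against 51.7%, p = 0.5). Sizes moved by over 1.5 times in several cases. With peaks within 1 kb merged, the density difference was -45.3 peaks per Mb in place of -114.8, that in median width -235.5 bp in place of -62.1, and that in isolated share 21.1 percentage points in place of 8.99. At or above the median score of the list, density differed by -73.0 peaks per Mb, width by -147.9 bp, score by -4.29 in place of -2.53, isolated share by 30.7 points, the share with both replicates by -4.79 points in place of -11.9, and the share with a partner by -4.92 points in replicate 1 (in place of -10.4) and -4.85 in replicate 2 (in place of -11.3). With both replicates required, density differed by -65.2 peaks per Mb, width by -130.4 bp, score by -5.6 and isolated share by 28.2 points. Without replicate 1, width differed by -37.1 bp, score by -1.49, isolated share by 16.3 points and covered share by -5.23 points in place of -8.58. An overlap of 50% of both peaks gave -6.93 points for the share with both and -6.66 for replicate 1 partners, and isolation at 20 kb gave 4.61 points. The share of windows with no combined peak, 3.88% at 100 kb, was 19.0% at 50 kb and 0% at 250 kb, since smaller windows hold fewer peaks. The rho of the replicate scores in the centres was 0.74 for pairs with 50% of both peaks overlapping, in place of 0.67; the cause was not tested. Replicate support needs both lists and was not run on a single one. No paired analysis was possible because peak lists were analysed for ChIP alone, and the samples that share its replicate numbers are inputs. Depth is unknown, so the lists do not show whether centre peaks seen once lie under the threshold in the other replicate.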
